A study of Aedes aegypti with 6 samples.

Results

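Short introns of the mosquito Aedes aegypti were followed through 6 whole-body RNA libraries, as annotated introns of at most 100 bases that begin with GT and end with AG on the transcribed strand and that at least 10 uniquely mapped reads crossed over the 6 libraries together. They were thus chosen by the annotation, the length and the summed reads, and their reads across the libraries as a whole are a description. The rule took 3725 of the 21668 splice junctions in the deposited tables. The members were 23.9% of the 15579 annotated junctions and 37.1% of the 10031 annotated junctions with at least 10 reads. Adults and larvae came from 3 locations in Eastern India, which the labels call K1 (here location 1), K3 (location 2) and C (location 3). Adults and larvae were both sequenced at every location, as 1 library each from a pool of 10 mosquitoes, which makes 3 adult and 3 larval libraries. Neither age, sex nor feeding state is given for any pool in the labels, and no treatment is named.

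An intron is the stretch of a gene that the spliceosome cuts out of the transcript before the exons are joined. Most introns begin with GT, the donor site, and end with AG, the acceptor site. In insects many introns are short, and in Drosophila the sites of a short intron are recognised as a pair across the intron, whereas long introns are more often recognised across the exons that flank them. A sequencing read that spans the joined exons shows that 1 transcript molecule was spliced there, and the number of such reads follows both the abundance of the transcript and the use of that intron. A difference in these counts between whole bodies can come from fewer cells of a type or from less RNA per cell, which cannot be told apart here.

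Reads across annotated junctions numbered 3917343, 1091862 and 1730517 in the adults of locations 1, 2 and 3, against 4903085, 4690045 and 6652116 in the larvae. All 3 larval libraries were deeper than all 3 adult libraries, and the adult library of location 2 was the smallest. The adult floor of 3 reads over the stage was 0.465 CPM (annotated junction reads scaled by library total and TMM factor), against 0.176 CPM for larvae. Levels below are in these CPM, and reads are uniquely mapped ones unless stated otherwise. The larval libraries also weighed more in the sum of reads that chose the members.

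The members had a narrow range of lengths. The shortest spanned 48 bases, the quartiles were 61 and 70 bases, and the median was 65 bases. The most frequent length was 62 bases, with 270 introns. Introns of 60 to 69 bases made up 56.6% of the members (2108 introns). Introns of 48 to 59 bases made up 16.2% (602), those of 70 to 79 bases 17.4% (648) and those of 80 to 100 bases 9.85% (367). The plot of members by length shows a single peak, with few introns near the limit of 100 bases.

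**Figure D1:**
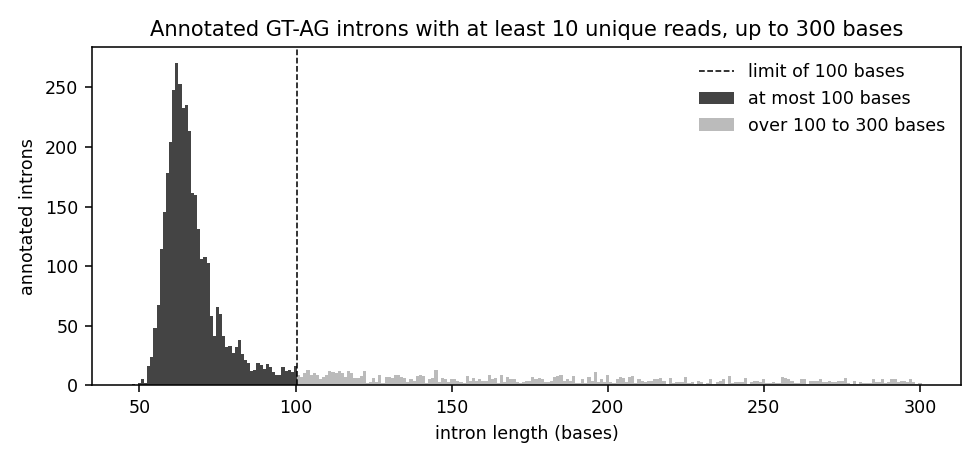
Number of annotated GT-AG introns with at least 10 uniquely mapped reads at each length in bases. The count peaks at 62 bases with 270 introns, and the median of the 3725 introns of at most 100 bases is 65 bases.

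The upper limit of the rule fell where introns were sparse. There were 16 members of exactly 100 bases, with a median of 150.5 reads, and 9 annotated introns of 101 bases passed the same read minimum, with a median of 42 reads. The read minimum fell where introns were dense. There were 70 members with exactly 10 reads and 70 short annotated GT-AG introns with 9. Below the minimum lay 1976 of the 5701 short annotated GT-AG introns, of which 381 had no uniquely mapped read. Another 16 short annotated introns had other end motifs and were not members.

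The lengths were spread evenly over the remainders of division by 3, the size of a codon in bases. Whole multiples of 3 were found in 1263 members, or 33.9%, and the other remainders in 1225 and 1237. Among the 6273 longer annotated GT-AG introns with at least 10 reads the share of multiples of 3 was also 33.9%. The members lay on both strands, 1839 on the plus strand and 1886 on the minus strand. By total reads the typical member was slightly below introns of 101 to 10000 bases. The median was 62 reads for members, 73 for 101 to 200 bases, 75 for 201 to 1000 bases, 69 for 1001 to 10000 bases and 52 for longer introns.

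Of the 5 shortest members, those in LOC5572223, LOC5572295, LOC5577463 and LOC5573986 had 20, 56, 45 and 43 reads in all, under the members' median of 62, and that in LOC5564378 had 114. The intron of 48 bases in LOC5572223 (positions 269234076 to 269234123 of chromosome 3, minus strand) had reads in the larvae of location 3 only, at 2.62 CPM. An intron of 50 bases in LOC5564378 (286821788 to 286821837 of chromosome 1, minus strand) was at 4.46, 0 and 2.53 CPM in the adults of locations 1, 2 and 3, against 5.12, 5.65 and 5.77 CPM in the larvae. The larval levels lay close together and above every adult level, and the stage test did not call it (edgeR adjusted p = 0.797). Introns of 50 bases in LOC5572295, 51 bases in LOC5577463 and 51 bases in LOC5573986 stayed at or below 8.26 CPM in all 6 libraries and did not pass the filter on low counts.

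The members took about the same share of splicing reads at both stages. They held 22.0%, 21.2% and 20.2% of annotated junction reads in the adults of locations 1, 2 and 3, against 23.8%, 21.4% and 20.7% in the larvae. The adult mean was 21.1% ± 0.937 and the larval mean 22.0% ± 1.66 (SD, n = 3 each), and the ranges overlapped. The difference of -0.849 percentage points was smaller than the larval spread (exact permutation test, two-sided p = 0.6). With 3 libraries a stage this exact permutation test cannot go below p = 0.1. At each location the adult share was the lower one, by -1.81 points at location 1, -0.201 at location 2 and -0.537 at location 3. Since the sign of the mean difference turned without the larvae of location 1, at 0.0881 points, no direction is read from it.

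A few heavily used introns carried much of that share. The 10 members with the most reads held 47.9%, 47.5% and 49.6% of the members' reads in the adults, against 37.6%, 43.7% and 39.1% in the larvae. Every adult library lay above every larval library (48.3% ± 1.12 against 40.1% ± 3.19, SD, n = 3 each, exact permutation test, two-sided p = 0.1). These 10 were picked for their reads in the same libraries, so the level and the difference between stages are a description. The 10 longer introns with the most reads held 15.5% of the annotated junction reads outside the members in adults on average, against 14.9% in larvae. These ranges overlapped (exact p = 0.8). Without its 10 leading members the short class held 12.8%, 12.4% and 11.3% of annotated junction reads in the adults, against 16.3%, 13.3% and 13.7% in the larvae. These ranges did not overlap. The means were 12.2% ± 0.792 in adults and 14.4% ± 1.67 in larvae (SD, n = 3 each, exact permutation test, two-sided p = 0.1). Some of the 10 differ strongly by stage, so the difference of -2.28 points depends on which introns fall in the list. Without the LOC5579954 intron alone, which is in the list, the difference was 0.417 points (exact p = 0.6). This contrast is thus a description too.

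**Figure D2:**
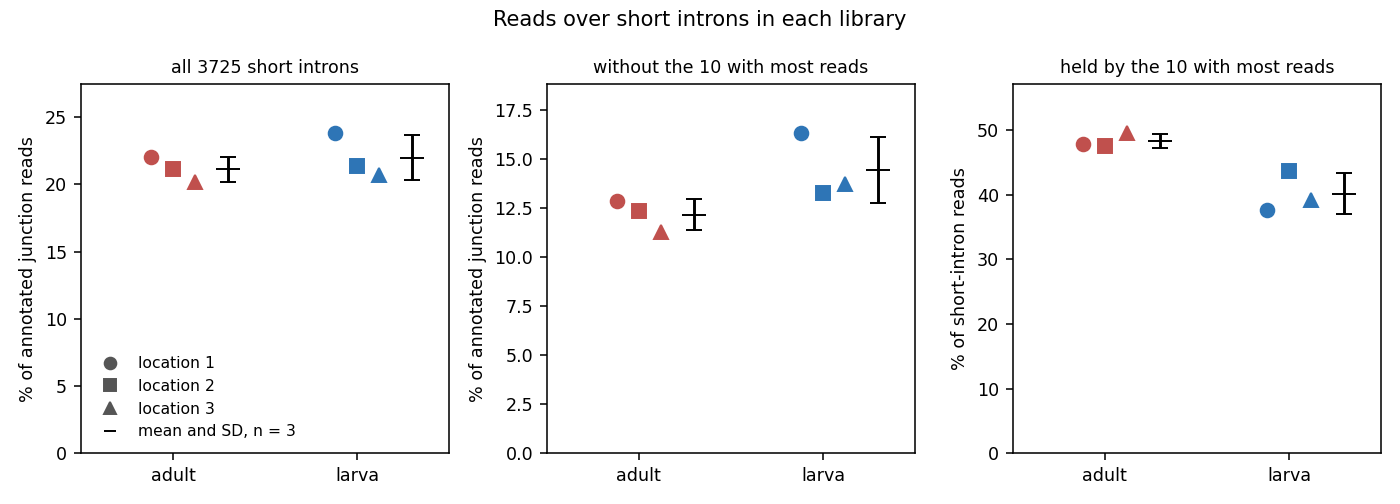
Share of annotated junction reads, in percent, that crossed members in each library, with and without the 10 members with the most reads, and the percent of the members' reads that those 10 held. Points are libraries and bars are stage means with SD (n = 3). With all members the adult and larval values overlap, and without the leading 10 the adults lie between 11.3% and 12.8% and the larvae between 13.3% and 16.3%.

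The most-read introns were of several kinds by stage. The intron of LOC5571927 (58 bases, positions 380837862 to 380837919 of chromosome 3, minus strand) had the most reads, 384702 in all. It was at 15804, 13402 and 23236 CPM in the adults of locations 1, 2 and 3, against 14039.7, 25456 and 13574 CPM in the larvae. The stages overlapped, and the intron averaged 17481 ± 5127 CPM in adults and 17689.7 ± 6729.7 CPM in larvae (SD, n = 3 each, -0.02 on the log2 scale with SE 0.38, edgeR adjusted p = 0.988). The intron of LOC5564713 (82 bases, 30439763 to 30439844 of chromosome 1, minus strand) was at 13074, 16989 and 17846 CPM in the adults, against 11676, 27125 and 14543 CPM in the larvae. Here too the largest value was that of the larvae of location 2, and no difference was detected (edgeR adjusted p = 0.9). Similar overlap held for the introns of LOC5570139, LOC5566522, LOC5564212 and LOC5577566 and for the intron of 75 bases at 246241609 to 246241683 of chromosome 2, which lies in LOC5578156 and in LOC5578155. The adult over larval ratio of these 5 ran from 0.797 to 1.07.

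The remaining 3 of the 10 differed by stage. The intron of 64 bases at 63253874 to 63253937 of chromosome 3 (plus strand), which lies in both LOC5567674 and LOC5567680, was at 25012, 20622 and 14162 CPM in the adults of locations 1, 2 and 3, against 3.47, 69.0 and 23.5 CPM in the larvae. All adult values were far above all larval values, a ratio of 623 between the means (9.29 on the log2 scale with SE 1.04, edgeR adjusted p = 0.000332). The intron of LOC5579954 (68 bases, 302955716 to 302955783 of chromosome 1, plus strand) had no adult read, and its larval levels were 17392, 23714 and 8347 CPM. It fell at least 35463-fold in adults against the adult floor of 3 reads over the stage (edgeR adjusted p = 2.77e-05). The intron of LOC5580231 (64 bases, 160910495 to 160910558 of chromosome 1, plus strand) was at 27226, 3681 and 13094 CPM in the adults, against 1785, 2765 and 1606 CPM in the larvae. All 3 adults were above all 3 larvae, but the adults of location 2 were close to the larvae of location 2. Its call (2.84 on the log2 scale with SE 0.62, edgeR adjusted p = 0.0187) was kept in only 1 of 6 leave-one-out fits, and the adjusted p reached 0.13.

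Across the tested junctions, members called between stages were few and mostly higher in larvae. The edgeR quasi-likelihood test ran on 4236 annotated junctions that passed the filter on low counts, 1590 of them members, and the other 2135 members were not tested. Of the tested members, 38 (2.39%) were higher in adults, against 2.08 percent of all tested annotated junctions, and 85 (5.35%) were higher in larvae, against 4.08 percent. All tested junctions include these members, with 88 called higher in adults and 173 higher in larvae in all. The members thus lift the background they are set beside, and their gap to the other junctions was not tested. Neither share is read as a result about short introns. At an unadjusted p under 0.05 there were 323 members and 824 junctions of all kinds. Of the introns higher in adults, 38 of 38 had adults above larvae at all 3 locations. Of those higher in larvae, 84 of 85 had larvae above adults at all 3. Both counts moved with single libraries. Introns higher in adults numbered 20 without the adults of location 1, 20 without the adults of location 3, 22 without the larvae of location 1 and 18 without the larvae of location 2. Introns higher in larvae numbered 54 without the adults of location 1, 53 without the adults of location 2 and 47 without the larvae of location 2.

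**Figure D3:**
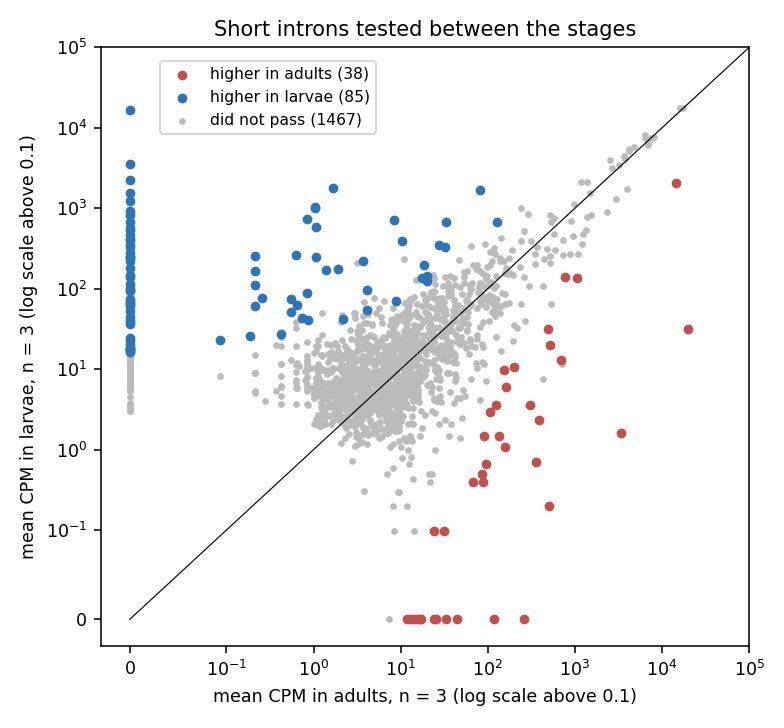
Mean level of each tested member in adults against larvae, in CPM on logarithmic axes, with the introns called in each direction in colour. The 38 introns higher in adults and the 85 higher in larvae lie away from the diagonal of equal levels, around which the other tested members spread, and introns with no read in a stage lie at 0.

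Most tested members leaned to larvae under the scaling, as did all junctions. The median log2 fold change of adults over larvae was -0.61 for tested members and -0.51 for all tested annotated junctions, a gap of -0.10. With DESeq2 size factors these medians were -0.43 and -0.35, a gap of -0.08, and with library totals -0.69 and -0.59, a gap of -0.10. The scaling thus moved members and all junctions together and left the gap between them nearly the same. The gap itself was not tested. Of the called members, 30.9% were higher in adults under TMM, 35.4% with DESeq2 size factors and 32.9% with library totals.

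The changes of the called introns were large, and the call itself selects for large changes, so their sizes are a description. Of the 38 introns higher in adults, 12 had no larval read, and of the 85 higher in larvae, 46 had no adult read, beside the lower adult depth. For the 23 introns higher in adults with more than 3 reads in each stage, the adult mean was 61.3 times the larval mean at the median, from 5.53 to 2059 times. For the 30 such introns higher in larvae, the larval mean was 53.2 times the adult mean at the median, from 5.24 to 1076 times. The introns higher in adults held 21.1% of the members' summed CPM in adults and 1.10% in larvae. The introns higher in larvae held 0.205% in adults and 20.8% in larvae. These shares follow from the call and are a description. The called share varied by chromosome and by length. Called members were 6.02%, 7.94% and 8.80% of those tested on chromosomes 1, 2 and 3. All tested annotated junctions there, members included, gave 6.04%, 6.61% and 5.80%. By length the called share was 7.86%, 7.81%, 6.86% and 8.81% in the 4 classes from shortest to longest, and no difference between these shares was tested.

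The 8 members named for adults lay in 8 host genes or gene pairs. The intron of LOC5578131 (66 bases, 37553595 to 37553660 of chromosome 2, minus strand) was at 5551, 3218 and 1303 CPM in the adults of locations 1, 2 and 3, against 4.30, 0.595 and 0 CPM in the larvae. The lowest adult was far above the highest larva, with a ratio of 2059 between the means (10.96 on the log2 scale with SE 1.40, edgeR adjusted p = 0.000678). The intron of LOC23687983 (73 bases, 205837080 to 205837152 of chromosome 2, plus strand) was at 304, 741 and 486 CPM in the adults, against 0, 0.595 and 0 CPM in the larvae. Its larval mean rests on very few reads, and the call was kept in 6 of 6 leave-one-out fits (edgeR adjusted p = 0.000295 with all libraries).

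The other 6 had no uniquely mapped larval read, and 2 of them lie near each other on chromosome 3. The intron of LOC5575401 (58 bases, 35908398 to 35908455, minus strand) was at 243, 146 and 384 CPM in the adults, at least 1463-fold higher than in larvae (edgeR adjusted p = 0.000287). The intron of LOC5575400 (57 bases, 35956794 to 35956850, minus strand) was at 12.6, 23.3 and 41.1 CPM in the adults, at least 146-fold higher (edgeR adjusted p = 0.0125). Both bounds rest on the larval floor of 3 reads over the stage, and the call of the LOC5575400 intron was kept in 4 of 6 leave-one-out fits. The intron of LOC5571814 (54 bases, 86030857 to 86030910 of chromosome 2, minus strand) was at 153, 135 and 64.5 CPM in the adults and was at least 668-fold higher (edgeR adjusted p = 0.00052). The intron of 66 bases at 59243067 to 59243132 of chromosome 2 (plus strand), in LOC5568108 and LOC5568109, was at 63.3, 51.3 and 18.3 CPM in the adults (at least 252-fold higher, edgeR adjusted p = 0.00428). The introns of LOC5573074 and LOC5572911, on chromosome 2, reached 48.2 and 53.6 CPM in their highest adult library and 6.69 and 2.79 CPM in the adults of location 1, their lowest. Their calls were kept in 4 and in 1 of the leave-one-out fits.

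The 8 members named for larvae had no uniquely mapped adult read. Their multiply mapped reads over the 6 libraries ran from 47 (LOC5565356) to 2213 (LOC5566737, beside 8311 uniquely mapped reads). These multiply mapped reads were not split by stage for single introns. The intron of LOC5567234 (96 bases, 332473795 to 332473890 of chromosome 3, plus strand) was at 0 CPM in all 3 adults, against 2889, 7637 and 220.3 CPM in the larvae of locations 1, 2 and 3. The larvae differed strongly among themselves, and the adult level was lower at least 7707-fold (edgeR adjusted p = 0.000755). A stretch of chromosome 1 gave 3 of the named introns. Beside the LOC5579954 intron, the LOC5579955 intron (69 bases, 302937964 to 302938032, minus strand) was at 0 CPM in adults, against 2674, 2265 and 1835 CPM in the larvae. The LOC5579510 intron (63 bases, 303075134 to 303075196, minus strand) was at 0 CPM in adults, against 4131, 164 and 404 CPM in the larvae. The LOC5579955 intron was the most even of these between larvae (lower in adults at least 4858-fold, adjusted p = 2.79e-05), and the LOC5579510 intron was carried by the larvae of location 1 (at least 3369-fold lower, edgeR adjusted p = 0.00184).

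A similar cluster lay on chromosome 3. The LOC5566739 intron (58 bases, 159812000 to 159812057, minus strand) was at 0 CPM in adults, against 194, 1999 and 299 CPM in the larvae of locations 1, 2 and 3. The LOC5566737 intron (59 bases, 159844616 to 159844674, minus strand) was at 0 CPM in adults, against 333, 1539.6 and 147 CPM in the larvae. Both were highest in the larvae of location 2, and they were lower in adults at least 1786-fold and at least 1448-fold (edgeR adjusted p = 0.000849 and 0.000755). The intron of 63 bases at 246337560 to 246337622 of chromosome 3 (minus strand), in LOC5565233 and LOC5566631, was at 0 CPM in adults, against 1778, 607 and 1278 CPM in the larvae (at least 2627-fold lower, edgeR adjusted p = 0.00014). The intron of LOC5565356 (62 bases, 288306233 to 288306294 of chromosome 2, plus strand) was at 0 CPM in adults, against 429.8, 2342 and 19.3 CPM in the larvae (at least 2002-fold lower, edgeR adjusted p = 0.00558). Its lowest and highest larvae were far apart, and its call was lost without the adults of location 2 (adjusted p = 0.0651). The plot of the named introns shows their values by library.

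**Figure D4:**
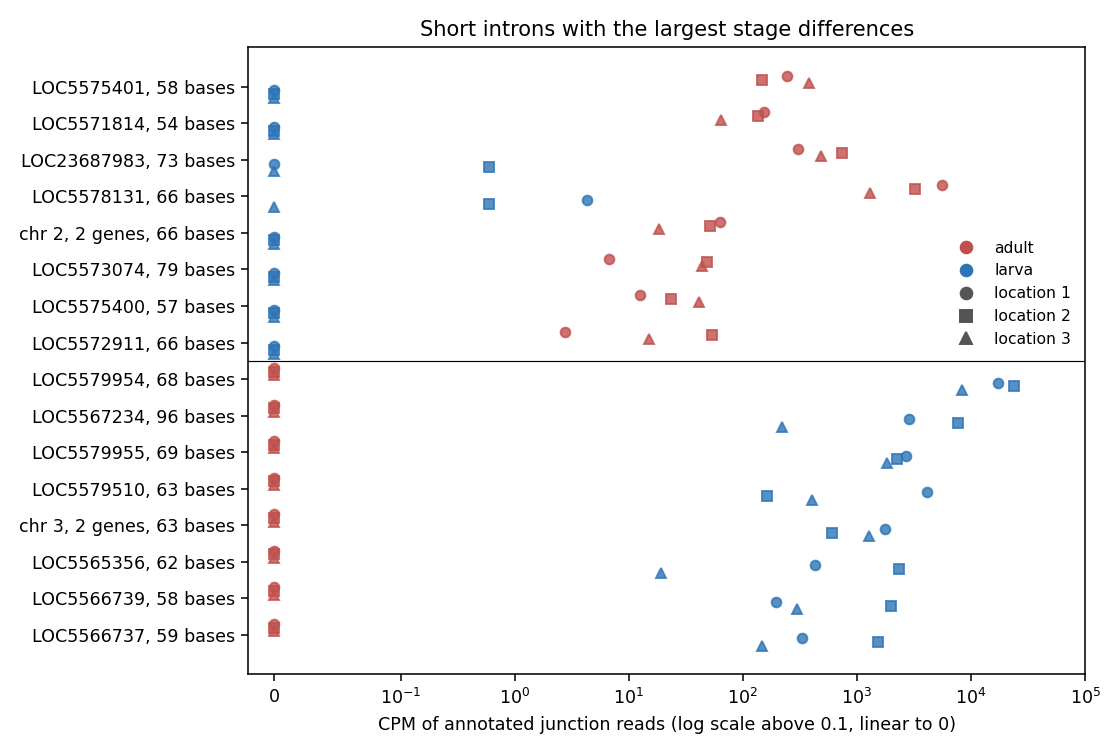
Level in CPM, on a logarithmic axis, of the introns named for each stage, with adult libraries and larval libraries as separate points and libraries without a read drawn at 0 at the left edge. The introns named for adults have every adult point above every larval point, and the introns named for larvae have no uniquely mapped adult read.

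Most host genes of called introns held a single one. Of the introns higher in adults, 32 lay in exactly 1 gene each, in 28 genes, and of those higher in larvae 74 lay in 61 genes. In 14 genes at least 2 members were called, 3 of these genes in the adult direction and 11 in the larval direction, and no gene had called members in both directions. The 3 called members of LOC5573467 on chromosome 2 had 1183, 527 and 467 reads in the adults, against 0, 32 and 55 reads in the larvae. The 3 called members of LOC110678413 on chromosome 3 had no adult read, against 660, 73 and 3087 reads in the larvae. The 2 called members of LOC5569937 on chromosome 3 had 0, 8 and 0 reads in the adults, against 16469, 2929 and 18846 reads in the larvae. In each of these genes the highest value of the lower stage was under the lowest value of the higher one.

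Short and longer introns of the same gene were set side by side. Of 571 genes with tested introns of both kinds, 455 had the same sign for their short and their longer introns, and the median absolute gap between them was 0.61 on the log2 scale. Among 26 genes with a called member and a tested longer intron, the sign was the same in 26, and a longer intron was called too in 15. Under the scaling most tested junctions had a negative log2 fold change, 1024 of the 1590 tested members among them, and agreement by chance was not computed. The 26 genes were picked for a large change, and the introns of a gene share its transcripts, so these counts are a description.

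Set beside the other introns of the same gene, short introns had a lower ratio of reads in each adult library than in any larval library under some gene sets and not under another. In 1169 genes with both kinds and at least 20 reads per library on average, the median log2 ratio of the mean reads of short introns to those of other introns, with 1 added to each, was 0.12, 0.00 and 0.28 in the adults of locations 1, 2 and 3, against 0.42, 0.58 and 0.56 in the larvae. No adult value reached the lowest larval value, and the means were 0.13 ± 0.14 in adults and 0.52 ± 0.09 in larvae (SD, n = 3 each, difference -0.39, exact permutation test, two-sided p = 0.1, the smallest 3 against 3 allows). With genes of at least 5 reads per library on average, a setting that takes in more genes, the mean was 0 in adults and 0.35 in larvae. The stages no longer separated there (exact p = 0.4). With 1 added to each mean, a gene with no read of either kind in a library has a ratio of exactly 0. Such genes pull the median of a shallow library to 0, so this setting cannot tell a lost difference from low depth. Their number was not counted. Both the level above 0 and the difference between stages are touched by the rule. The members had to reach a minimum in summed reads, in which the deeper larval libraries weighed more, and the other introns had none. These others were all annotated introns of the gene that were not members, so short introns under 10 reads counted among them. The ratio is thus not one of short to longer introns, and the difference is a description. Depth moved with this result. Limited to genes with at least 20 reads in the library itself, the values were 0.47, 0.49 and 0.62 in the adults, against 0.68, 0.63 and 0.63 in the larvae. The highest adult value was only just under the lowest larval value, and the difference then was -0.11 (exact p = 0.1), from 481 to 809 genes per adult library and from 961 to 1093 per larval library. With the other introns also held to at least 10 reads, the means were 0.01 in adults and 0.19 in larvae (difference -0.17, exact p = 0.1). The part of depth in this difference was not tested.

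**Figure D5:**
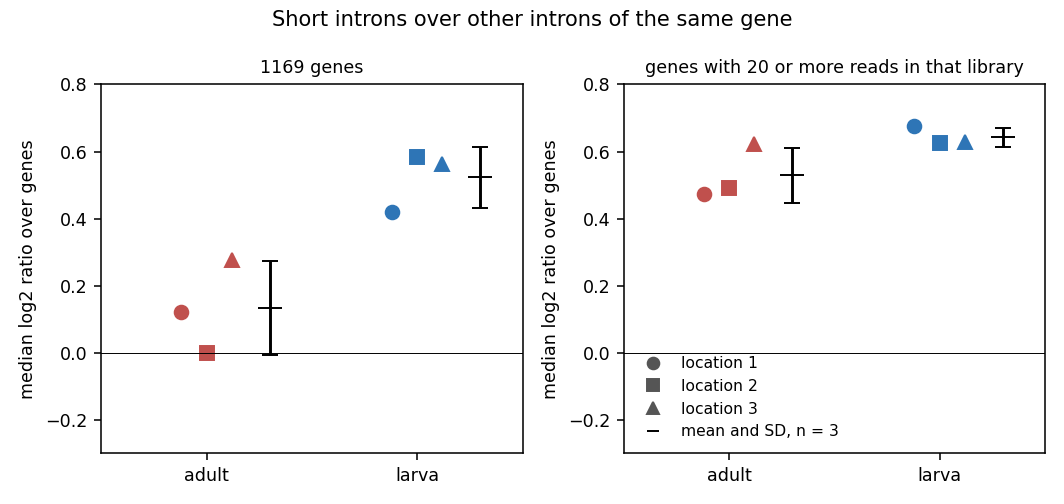
Median over genes of the log2 ratio of short-intron to other-intron reads of the same gene in each library, for the 1169 genes and for the genes with at least 20 reads in that library. Other introns are all annotated introns of the gene that are not members, short ones under the read minimum included. Points are libraries and bars are stage means with SD (n = 3). The 3 adults lie below the 3 larvae in both, by 0.39 and 0.11 on the log2 scale between the means.

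The number of members with a read differed between libraries, as did depth. A read was found for 2050, 925 and 2077 members in the adults, against 1942, 3066 and 2675 in the larvae. The stages overlapped, and the means of 1684 ± 657 in adults and 2561 ± 571 in larvae were not separated by the test (SD, n = 3 each, difference -877, exact permutation test, two-sided p = 0.3). At an equal depth of 1091862 annotated junction reads, the expected numbers were 1956, 925 and 1977 in the adults, against 1894, 2489 and 2548 in the larvae (exact p = 0.3). The adults of location 2 were lowest in both counts. The expected numbers treat reads as independent molecules, and the part of depth in the differences between libraries was not tested. Equal depth also leaves the choice of members as it was, by summed reads in which the larval libraries weighed more. The counts by stage are thus a description. Of the annotated introns with a read, members were 33.4% in adults and 32.8% in larvae on average (exact permutation test, two-sided p = 0.9). Introns with reads in all 6 libraries were 14.1% of members (525), and those with reads in 1 library were 12.5% (466). Among longer introns these were 17.1% and 13.8%. No adult read was found for 1042 members (28.0%, against 27.0% of longer introns), and no larval read for 207 (5.56%, against 6.06%). The 1042 had a median of 32 reads in all and the 207 a median of 17, so many were thin.

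Some members were steady across all 6 libraries. Of 312 members with at least 1000 reads, 226 had a read in every library, and their median SD of log2 CPM over the libraries was 0.907. The intron of LOC5573217 (66 bases, 409279221 to 409279286 of chromosome 3, plus strand) had the smallest SD. It was at 2673, 3084 and 2183 CPM in the adults, against 3055, 3549 and 2760.0 CPM in the larvae, and the stages overlapped (edgeR adjusted p = 0.83). The intron of LOC5573827 (63 bases, 294225003 to 294225065 of chromosome 3, plus strand) was at 3836, 4128 and 4425 CPM in the adults, against 4357, 6668 and 4496 CPM in the larvae. The introns of LOC5565848, LOC5564798 and LOC5565629 varied little at lower levels, between 38.5 and 253 CPM in all libraries. For LOC5565848 every larva (48.6, 60.3 and 52.1 CPM) lay above every adult (38.5, 40.4 and 41.1 CPM). For LOC5564798 every adult (224, 218 and 253 CPM) lay above every larva (144, 213 and 204 CPM). Neither was called between stages (edgeR adjusted p = 0.83 and 0.843), and the stages overlapped for LOC5565629.

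Short introns lay on all 3 chromosomes close to the spread of annotated introns. Chromosome 1 held 868 members (23.3%), chromosome 2 held 1557 (41.8%) and chromosome 3 held 1271 (34.1%), with 29 on 25 unplaced scaffolds. They were 35.5%, 36.8% and 38.5% of the annotated junctions with at least 10 reads on chromosomes 1, 2 and 3. Median lengths were 64, 65 and 65 bases and median reads 63, 60 and 63. On chromosome 3, members took 24.7%, 25.2% and 24.1% of the chromosome's annotated junction reads in the adults, against 23.6%, 22.0% and 20.9% in the larvae, and the ranges did not overlap (exact permutation test, two-sided p = 0.1). Without the 10 members with the most reads in the series the order on chromosome 3 was the opposite, 12.7%, 13.8% and 12.8% in the adults, against 18.0%, 15.8% and 15.4% in the larvae (exact p = 0.1). These 10 were left out together, and no single intron of chromosome 3 was left out alone. Among them is the chromosome 3 intron at 63253874 to 63253937. It had 89673, 26540 and 22400 reads in the adults, against 21, 232 and 179 in the larvae. How far this intron sets the higher adult share on chromosome 3 was not tested. On chromosome 1 members took 23.2%, 18.4% and 19.0% in the adults, against 28.8%, 25.4% and 21.7% in the larvae (exact p = 0.2), and on chromosome 2 18.4%, 18.4% and 16.7%, against 20.0%, 17.4% and 18.8% (exact p = 0.4), and the stages overlapped on both.

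Most members lay inside protein-coding genes, and many genes held several. Of the members, 3508 lay in exactly 1 RefSeq gene of assembly AaegL5.0, 186 in more than 1, 2 in none, and 29 were on unplaced scaffolds. The 2437 host genes comprised 2427 protein-coding genes, 9 genes for long non-coding RNA and 1 pseudogene. A single member was found in 1716 host genes and at least 5 in 28. LOC5577014 on chromosome 2 held 8 of its 10 annotated introns with at least 10 reads, from 57 to 81 bases, and 3 of these members overlap each other. Its members had 81, 0 and 6 reads in the adults, against 243, 80 and 153 in the larvae, and none of its 3 tested members was called. LOC5569977 on chromosome 2 held 7 and LOC5574326 on chromosome 1 held 6, with none called of the 4 tested in each. In 1026 host genes every annotated intron with at least 10 reads was short, and 821 of these had just 1 such intron. In the 533 genes with neighbouring members, the stretch between consecutive short introns was 199 bases at the median (quartiles 140 and 411.5, minimum 31).

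Between locations few members were called with all 6 libraries. Each pair of locations was tested as the mean over both stages, with 2 residual degrees of freedom, and 4, 5 and 5 of the 1590 tested members were called for location 2 against 1, location 3 against 1 and location 3 against 2 (0.252%, 0.314% and 0.314%). All tested annotated junctions, members included, gave 0.0944, 0.165 and 0.212 percent, which is 4, 7 and 9 junctions. Most of these were the members themselves, and for location 2 against 1 every called junction was a member. These shares are thus no separate background, and the gap to the other junctions was not tested. At an unadjusted p under 0.05 there were 43, 31 and 37 members. Without the adults of location 2 there were 50, 19 and 39 calls among 2244 tested members. Without the larvae of location 2 there were 11, 5 and 10, and without any 1 of the other 4 libraries from 0 to 6. The intron of LOC5575341 (62 bases, 257164817 to 257164878 of chromosome 3, minus strand) was at 29.6, 97.1 and 1159.5 CPM in the adults of locations 1, 2 and 3, and at 0, 17.2 and 5.64 CPM in the larvae. Location 1 was lowest at both stages, and the intron was called higher at location 3 than at location 1 (5.25 on the log2 scale, SE 1.06, edgeR adjusted p = 0.00152) and higher at location 2 than at location 1 (5.02, SE 1.18, adjusted p = 0.0319). These calls were kept in 3 and in 1 of 6 leave-one-out fits.

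The other location calls also changed when a library was left out. The intron of LOC5576677 (69 bases, 203027560 to 203027628 of chromosome 1, minus strand) was at 0, 0 and 3.16 CPM in the adults and at 26.4, 1008 and 697 CPM in the larvae of locations 1, 2 and 3, and was higher at location 3 than at location 1 (edgeR adjusted p = 0.00749). The intron of LOC5567964 was at 911, 204 and 53.7 CPM in the adults and at 6.77, 0.297 and 0 CPM in the larvae, and was lower at location 3 than at location 1 (edgeR adjusted p = 0.00439). Both stages gave the same order for LOC5567964, with location 1 highest. The larval introns of LOC5565356 and LOC5567234, with no adult read, were lower at location 3 than at location 2 (adjusted p = 0.00283 and 0.00868), so the larvae alone gave these calls. LOC5578864 at 2.53 against 41.2 CPM in adults and 1.31 against 269 CPM in larvae was also lower at location 3 than at location 2 (adjusted p = 0.00868). For location 2 against location 1, LOC5563930 was lower (edgeR adjusted p = 0.0217), with adults at 145, 0 and 143 CPM and larvae at 21.2, 0.297 and 0 CPM in the order of the locations. LOC23687713 was at 72.2, 8.55 and 312 CPM in the adults and at 0, 185 and 0 CPM in the larvae. It was called higher at location 2 than at location 1 (edgeR adjusted p = 0.0217), but the stages went opposite ways, since it was lower at location 2 in adults and higher there in larvae. The calls of this paragraph were each kept in 1 or 2 of 6 leave-one-out fits.

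Few members had a competing splice site. Of the members, 100 (2.68%) shared a donor or an acceptor with another junction of at least 10 reads, and 953 longer introns (15.2%) did. These formed 92 pairs, 49 with different acceptors and 43 with different donors, and in 55 the competing junction was not annotated. In 8 pairs the sites were 3 bases apart. Over all 92 pairs 49 were offset by a multiple of 3, and of the 40 pairs within 60 bases 27 were (67.5%). The limit of 60 bases was not planned, and these shares were not tested. LOC110678970 on chromosome 3 joins 1 donor to acceptors 12 bases apart, giving introns of 81 and 69 bases. The 81-base intron had 43, 171 and 72 reads in the adults, against 16, 67 and 0 in the larvae. The 69-base intron had 98, 213 and 221 reads in the adults, against 64, 481 and 0 in the larvae. The 81-base form took 35.0% of the pair's adult reads and 13.2% of the larval reads, and the usage test did not call it (diffSpliceDGE adjusted p = 0.777).

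Between stages no shift in the use of such sites was called. Of 621 groups of junctions that share an intron end, 12 were called by diffSpliceDGE (1.93 percent), and 0 of the 58 groups that hold a member, with 1 at an unadjusted p under 0.05 and the smallest adjusted p at 0.35. In LOC5573467 the 82-base intron (91031726 to 91031807 of chromosome 2, plus strand) took 377 of 379, 261 of 261 and 149 of 149 reads of its group in the adults, against 0 of 0, 8 of 8 and 16 of 35 in the larvae. The larvae of location 3 gave most of the reads of the competing intron of 365 bases (adjusted p = 0.35). In LOC5573615 on chromosome 3 the 76-base intron, which shares its donor with an intron of 268 bases, took 37.6% of the pair's adult reads (1900 of 5056, exact 95% interval 36.2 to 38.9%) and 18.2% of the larval reads (1033 of 5680, 17.2 to 19.2%). The intervals cover counting error within these pooled libraries only, and the usage test found an adjusted p of 0.722. Over the 6 libraries the 76-base intron had 1436, 157 and 307 reads in the adults, against 368, 267 and 398 in the larvae, beside 2118, 399 and 639 and 1453, 1116 and 2078 for the longer one.

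Reads that also mapped elsewhere were counted apart. Multiply mapped reads were 1.79%, 1.11% and 1.11% of the members' reads in the adults, against 1.60%, 1.87% and 1.30% in the larvae (exact permutation test, two-sided p = 0.3). Other annotated junctions had 13.5%, 14.3% and 13.2%, against 14.9%, 13.9% and 15.3%. The members were held to 10 uniquely mapped reads and the other junctions to none, so these shares are not alike in construction. Short introns without the minimum were at 4.06% in adults and 4.98% in larvae on average. The other junctions without their 10 leading ones were at 6.99% in adults and 7.71% in larvae. These others are all annotated junctions that were not members, short introns under the minimum included. The sets thus share introns, and leading ones were left out on only the other side. The longest overhang of a spliced read was 60 bases at the median over members and 75 at most, and for 68 members it was under 10 bases.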

How the data were processed

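Per intron, the junction tables as deposited give raw counts of uniquely and of multiply mapped reads, and their overhang column is another unit used only to describe support. The deposited gene tables also hold counts, which are not used here. The submitters' processing notes name STAR, fastp, cutadapt, FastQC and edgeR without versions. Their genome build and annotation: not given in the sources used here. Host genes were looked up by position in the RefSeq table of assembly AaegL5.0, used for names only. On chromosomes 1, 2 and 3, 99.95% of 3696 members fell within a RefSeq gene, against 61.36% after a shift of 100000 bases and 57.98% after 1000000. Antisense or overlapping genes can share an intron, and such introns are named by both genes. The table gives no product names, so the planned gene groups and stage markers could not be applied, and the labelled stages could not be checked by markers.

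Junction counts of the 6 libraries were tested in R 4.3.3 with the quasi-likelihood test of edgeR 4.0.16 after filterByExpr by stage and TMM scaling, adults over larvae with 4 residual degrees of freedom, and pairs of locations with stage as a covariate. The 5% level applies to p-values adjusted by Benjamini-Hochberg over all annotated junctions tested. Junctions with at least 10 reads that share an intron end were tested with diffSpliceDGE. DESeq2 1.42.0 was an alternative, and limma 3.58.1 was loaded. Exact permutation tests and Clopper-Pearson 95% intervals used Python 3.11.15 with scipy 1.17.1. Depth ran from 1091862 to 6652116 annotated junction reads per library. A fold against a stage with no read used a floor of 3 reads over its 3 libraries, and such bounds and intervals reflect counting error alone. Each stage has 1 pool at a location, so p-values measure only the spread between pools of different locations.

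Named introns were the 10 with the most reads, up to 8 per direction of the stage test with the largest fold change, 3 per pair of locations, the 5 steadiest and the 5 shortest, 10 groups of the usage test and 3 host genes. The members and lists were chosen with earlier results of these data known. Alternatives were other scalings, DESeq2, no filter, a test against a 2-fold change, a block for location number, and leave-one-out fits. Leaving out the leading introns and the 2 stricter within-gene ratios were choices made after seeing the data, and so were LOC110678970, LOC5573615 and the genes with several called introns. Tests were checked on simulated counts with large changes in well-read junctions only. Their power for smaller changes or for thinly read introns was not checked.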

Additional observations from a re-analysis of the deposited data

Results flagged for a closer look

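Short junctions outside the annotation carried reads. There were 112 unannotated GT-AG junctions of at most 100 bases with at least 10 uniquely mapped reads, of 518 with any read, and they were set aside because the comparisons use annotated introns only. Their median length was 67 bases, 22 were shorter than 48 bases, the shortest was 21 bases, and 95 lay in exactly 1 RefSeq gene. They held 0.371%, 0.311% and 0.268% of the reads of short junctions in the adults of locations 1, 2 and 3, against 0.693%, 0.938% and 0.290% in the larvae. The 63-base junction in LOC5578796 had 1342, 385 and 458 reads in the adults, against 2053, 1297 and 1722 in the larvae. In LOC5567235 a junction of 93 bases had no adult read, against 2226, 2811 and 574 reads in the larvae, and the 63-base junction that begins at the base after its end had none in adults either, against 1715, 1796 and 323.

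Reads that map to several places crossed 253 short annotated GT-AG introns that had at least 10 such reads and no uniquely mapped read, of 381 with no uniquely mapped read. An 87-base intron of LOC110676601 on chromosome 2 had 2933, 763 and 626 such reads in the adults, against 4256, 2477 and 6924 in the larvae, and an 87-base intron on an unplaced scaffold had the same counts in every library. These values come from data that the rule of at least 10 unique reads leaves out. With no control samples to set them against, they stand above the limit of 3 reads that a count of 0 allows.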

How the results depend on the processing

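Stage calls among the members ran from 18 to 32 higher in adults and from 47 to 69 higher in larvae when 1 library was left out, against 38 and 85 with all. DESeq2's Wald test gave 82 and 177, and no low-count filter gave 59 higher in adults. Location 2 against 1 gave 11 calls with library totals, 0 with DESeq2 and 0 without the filter, and 0 to 50 with 1 library left out, against 4. Location 3 against 1 gave 8, 2 and 0, and 0 to 19, against 5, and location 3 against 2 gave 1 with DESeq2 and 0 to 39, against 5. The highest of these location counts were those without adult replicate 2. The share difference of -0.849 points ran from -1.48 to 0.0881 with 1 library left out, and was 0.417 without the intron of LOC5579954, an alternative chosen after seeing the data. Without larva replicate 2 the LOC23687713 intron reversed to -3.17 (location 2 over 1, adjusted p = 0.331; range over left-out libraries -3.17 to 14.23). The cause was not tested. Location fits without a library keep 1 library in an arm, which is assumed to vary like the others. Of 208 alternatives for the introns named by stage, 198 kept the call, 10 lost it and 0 reversed; of 99 by location, 43 kept it, 55 lost it and 1 reversed. Location numbers did not pair the libraries (r of -0.017, 0.028 and 0.036 over 4236 junctions, none over 0.1), and with location number as a replicate block 46 and 93 members were called between stages and 0 usage groups. The adult library of location 2, with 1091862 annotated reads, limits what can be seen.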
